A study of Zea mays with 16 samples.

Results

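Of the 42034 maize probes on the array, 90 (0.214%) were well above background in all 8 samples of 2 mm anthers and in at most 4 of the 8 samples of 1 mm anthers. These 90 probes, for 90 different transcript identifiers, are described here. The rule allowed up to 200 probes in order of their mean log2 processed signal at 2 mm, but 90 met it, so all were taken. Processed signal is the scanner software's intensity of a spot after background subtraction and color balancing, and "well above background" is that software's mark for a spot more than 2.6 SD above its background. For dim spots that software puts in a substitute value derived from its estimate of the noise, so the processed signals of spots that are not well above background have no order among themselves. The probes were chosen by these marks at both stages, so the stage difference is given as a description with no test.

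RNA of dissected maize anthers was measured on 8 oligonucleotide arrays, each read in a pair of colors, with 16 labeled samples in 4 groups of 4 biological replicates. The groups were *Mu killer* at 2 mm, *Mu* active at 2 mm, *Mu killer* at 1 mm and *Mu* active at 1 mm. *Mu killer* plants carried the dominant *Mu killer* locus, an inverted and rearranged copy of part of *MuDR* that can silence the transposon, in a stock with many *MuDR/Mu* elements. The series' own description calls this line Mu-inactive, and the scan date in the file headers lies before the growing season given in the methods. *Mu* active plants were siblings from the same segregating ears that lacked the locus and kept spotted kernels. *Mu killer* plants were grown from bronze kernels, so the lines differed in the chosen kernel as well as in the locus. All plants carried a *bz2* reporter background, and anthers of 1 mm were described as pre-meiotic and those of 2 mm as in late prophase I.

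Each array carried 1 sample of each line at 1 stage, with the colors exchanged between arrays 1 and 2 and arrays 3 and 4. The deposited labels do not say this. They give the Cy3 and Cy5 samples of an array one and the same line, so the line used here for the 8 Cy5 samples goes against their own labels. It was set from the series' description of a balanced dye swap and from the study's drawing of the hybridizations, in which every array pairs the lines, while the 8 Cy3 samples kept theirs. The direction between the lines is therefore likely and not settled. Were the assignment the other way round, the values given for the lines would change places and every ratio between them would change its sign and keep its size. Were the labels right as they stand, no array would hold both lines and no ratio given here would compare them. The choice of the 90 probes and the values over all 8 samples of a stage do not depend on the line. The 4 arrays of a stage were on 1 slide, so stage and slide cannot be told apart. In whole anthers, more cells of a type and more RNA per cell cannot be told apart either.

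The anther grows from a stage at which its wall layers and the cells that will enter meiosis are still dividing to one at which the meiocytes are well into meiosis. Over that time the tapetum, the innermost wall layer, becomes a secretory tissue that feeds the meiocytes and later supplies materials for the pollen wall. Genes of tapetal secretion, lipid and wall polymer metabolism are known to be switched on in this window in flowering plants. None of the 90 identifiers was found in the maize gene table used here (2 of all identifiers on the array were), so no gene name, function or pathway can be given for any of them. TC identifiers are tentative consensus assemblies of expressed sequences, and most of the others are single expressed sequence accessions.

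A sample had between 32697 and 37898 of the 42034 probes marked well above background, with the lowest number in *Mu* active replicate 1 at 1 mm. *Mu* active replicate 1 and *Mu killer* replicate 1 at 1 mm share an array, and both were low (32697 and 33387). Of 17 probes that the array names for AM1 (the maize regulator of entry into meiosis, ameiotic1), the cohesion protector SGO1 or cohesin subunits, 13 were well above background in all 8 samples at 2 mm and 14 in all 8 samples at 1 mm. Their geometric mean processed signal was higher at 2 mm for 5 and lower for 12. Array 3 at 2 mm stood apart in the ratio of the lines. Over the 29978 probes well above background in all 8 samples at 2 mm, its log2 ratios correlated with those of the other 2 mm arrays at r between -0.01 and 0.05, while the other 3 arrays correlated among themselves at r between 0.16 and 0.32 (across probes, which are not independent). The counts of line results are therefore given with and without it.

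The name "first detected at 2 mm" holds strictly for only 3 of the 90 probes, those for AW566110, AI665554 and TC304095, which were well above background in none of the 8 samples at 1 mm. A further 5 probes were marked in 1 sample, 9 in 2, 15 in 3 and 58 in 4 of the 8 samples. Hence 64.4% of the probes sat at the limit of the rule. One step outside it, 170 probes were marked in 5 of the 8 samples at 1 mm. The 58 probes at the limit had a median of their geometric means of 39.2 units at 2 mm and 14.0 units at 1 mm. The 170 probes just outside had 32.8 units at 2 mm and 17.8 units at 1 mm. The brightest of those outside, A_92_P021986 for AW066445, had between 1383 and 15206 units at 2 mm and between 7.63 and 21.33 units at 1 mm, so it was kept out by marks on spots of very low signal.

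The 1 mm detections were unevenly spread over the arrays. *Mu killer* replicates 1 to 4 had 10, 17, 70 and 59 of the 90 probes well above background at 1 mm, and *Mu* active replicates 1 to 4 had 7, 31, 65 and 41. Arrays 3 and 4 thus held most of the detections in both lines, and 42 of the 90 probes were marked in no sample of arrays 1 and 2, against 5 in no sample of arrays 3 and 4. Over all probes the shares well above background at 1 mm were 79.4%, 83.1%, 90.2% and 89.5% for *Mu killer* replicates 1 to 4, and 77.8%, 87.4%, 89.7% and 88.8% for *Mu* active replicates 1 to 4. The array with the fewest detected members was also the one with the fewest detected probes of any kind. Its part in the choice of the 90 probes was not tested beyond leaving it out, after which 55 probes met the rule (at most 3 of 6 samples at 1 mm) and 45 of them were among the 90. Without array 3 or array 4 at 1 mm 239 and 224 probes met it, and without array 1, 2 or 3 at 2 mm 165, 147 and 145 did.

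Counted by line, both lines had 6 probes marked in none of their own 4 samples at 1 mm, and 57 of the 90 probes were marked in as many *Mu killer* as *Mu* active samples. Another 20 probes were marked in more *Mu killer* samples and 13 in more *Mu* active samples. Among the 4250 probes marked in 1 to 4 samples at 1 mm, whatever their marks at 2 mm, 29.7% were marked in more *Mu killer* samples. In more *Mu* active samples 29.4% were marked. The bases differ, as the 90 include 3 probes with no mark and 58 with exactly 4 marks, a number that allows a tie. The members are therefore not compared with these shares. At least 3 of 4 samples were marked for 9 probes in *Mu killer* and for 3 in *Mu* active. No share over all probes was taken for these counts or for the probes marked in none, so they are not read as a line difference. The rule's limit of 4 of 8 samples bounds all the counts by line.

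**Figure D1:**
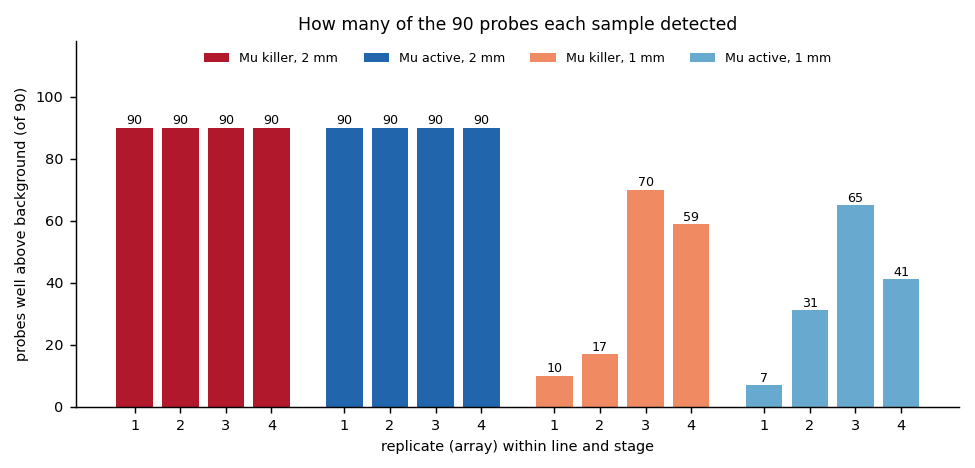
Number of the 90 probes well above background in each of the 16 samples, by line, stage and replicate (array). All 90 are detected in every 2 mm sample because the rule required it, and the 1 mm counts run between 7 and 70, with replicates 3 and 4 higher than replicates 1 and 2 in both lines.

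Most of the 90 probes were dim even at 2 mm. Their geometric means over the 8 samples at 2 mm ran between 14.8 and 12761 units with a median of 39.1 units, against a median of 365 units for the 29978 probes detected in all 8 samples at 2 mm. Only 4 of the 90 lay above that median, 2 reached 1000 units, 18 reached 100 units and 57 were under 50 units. The identifiers differed in kind as well. TC assemblies made up 32 of the 90 (35.6%), while they made up 72.5% of the probes detected in all 8 samples at 2 mm and 64.6% of all maize probes. The 12 brightest members held 10 of those TC assemblies and the other 78 members held 22.

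The 2 brightest members carried by far the greatest signal. TC295986 (A_92_P015314) had 7343, 4194, 20147 and 27462 units in *Mu killer* replicates 1 to 4 at 2 mm, and 7131, 10070, 19565 and 29374 units in *Mu* active replicates 1 to 4. At 1 mm it had 13.92, 11.35, 7.43 and 10.69 units in *Mu killer* and 15.25, 8.63, 22.14 and 11.14 units in *Mu* active, and it was well above background in replicate 3 of each line alone. No 2 mm sample came near any 1 mm sample, and the probe ranked 1811 of 29978 at 2 mm.

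TC313969 (A_92_P021598) had 5273, 3606, 17038 and 16626 units in *Mu killer* at 2 mm, and 2338, 3027, 12541 and 14426 units in *Mu* active. At 1 mm its *Mu killer* samples had 11.47, 9.034, 4.448 and 6.976 units and none was well above background, while *Mu* active had 12.02, 6.778, 4.81 and 23.83 units with replicate 4 alone above background. The stages did not overlap for this probe, and at 2 mm replicates 3 and 4 were the high pair in both lines.

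Stage differences were then taken from normalized levels, the log2 intensities of each color after normexp background correction with an offset of 50, loess within arrays and quantile scaling between arrays. The offset added to every spot pulls the differences of dim probes toward 0. On this scale TC295986 averaged 12.16 ± 1.06 at 2 mm and 6.53 ± 0.05 at 1 mm in *Mu killer* (SD, n = 4 each), and 12.46 ± 0.84 at 2 mm and 6.61 ± 0.11 at 1 mm in *Mu* active (SD, n = 4 each). Its log2 differences, 2 mm minus 1 mm, were 5.63 in *Mu killer* and 5.84 in *Mu* active (1 of 4 samples measured at 1 mm in each). With no offset they were 7.47 and 7.41, so the order of the lines is not settled. TC313969 was 42.5-fold higher at 2 mm in *Mu killer* by a floored 1 mm level, or 132-fold with no offset. Its log2 difference in *Mu* active was 4.89 (1 of 4 samples measured at 1 mm). For a floored value, each 1 mm level is the higher of the probe's own and the lowest of a detected probe in that sample. Over the 90 probes this floor left the median log2 differences at 0.25 in *Mu killer* and 0.21 in *Mu* active. Floored values shift with the offset, so they are estimates and no strict lower limits. As they compare single colors, they are open to dye bias.

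Over all 90 probes the median log2 difference, 2 mm minus 1 mm, was 0.25 in *Mu killer* against 0.21 in *Mu* active, beside 0.011 and 0.019 for all probes detected in all 8 samples at 2 mm. The level was at least 2-fold higher at 2 mm for 12 of the 90 (13.3%) in *Mu killer* and 10 (11.1%) in *Mu* active. Among the 29978 probes the shares were 4.05% in *Mu killer* and 2.94% in *Mu* active. The rule used this contrast, so the counts say how large the differences were and nothing more. With no offset the medians were 0.69 in *Mu killer* against 0.61 in *Mu* active, and 31 and 24 of the 90 reached 2-fold (6.12% and 4.01% of all such probes).

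The 12 brightest members held most of these differences, with 10 at least 2-fold higher at 2 mm in *Mu killer* and 9 in *Mu* active. The other 78 had differences between -0.03 and 1.48 in *Mu killer* and between -0.02 and 1.05 in *Mu* active, with medians of 0.21 and 0.16. All 8 samples at 2 mm had more processed signal than all 8 samples at 1 mm for 23 of the 90 (25.6%), and for 1.26% of the 29978 probes. For the other 67 members, detection at 2 mm went with signals that overlapped between the stages.

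**Figure D2:**
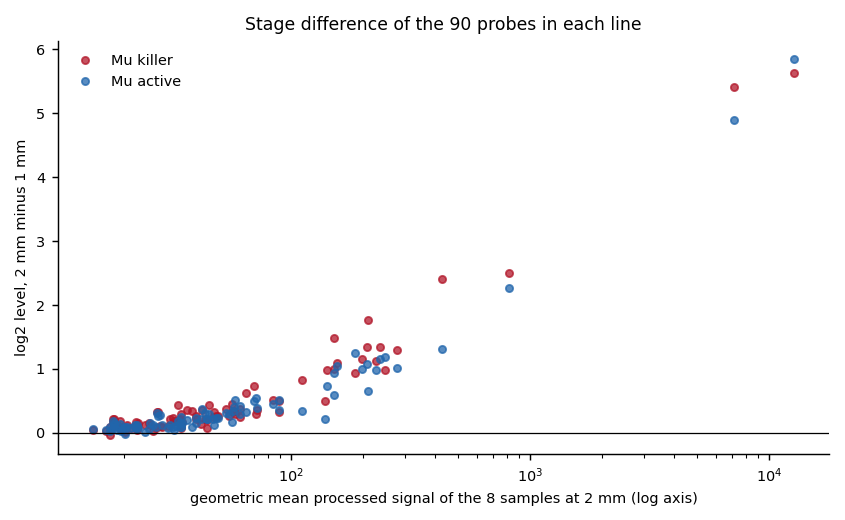
Log2 level at 2 mm minus 1 mm in each line (vertical axis) against the geometric mean processed signal of the 8 samples at 2 mm (horizontal log axis), with 1 red point for *Mu killer* and 1 blue point for *Mu* active per probe. TC295986 and TC313969 stand at the upper right with differences between 4.89 and 5.84, and most of the other probes lie under 50 units with differences near the medians of 0.25 and 0.21.

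TC312593 (A_92_P012268), the third brightest, had 557.0, 196.1, 2860 and 3025 units in *Mu killer* at 2 mm and 168.7, 141.2, 1591 and 5387 units in *Mu* active. At 1 mm the 8 samples lay between 4.605 and 17.92 units, 4 of them well above background. Its log2 level differences, 2 mm minus 1 mm, were 2.50 in *Mu killer* and 2.26 in *Mu* active. As for the 2 brighter probes, the stages did not overlap and replicates 3 and 4 were above replicates 1 and 2 at 2 mm in both lines.

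That order of the 2 mm arrays, noticed after the values were seen, was common among the bright members. In 8 of the 12 brightest members all 4 samples of arrays 3 and 4 had more processed signal than all 4 samples of arrays 1 and 2 at 2 mm. Over all 90 members the number was 13 (14.4%), beside 11.9% of the 29978 probes, and the opposite order was seen in 2 members, beside 1.35% of the probes. These counts required the order in both lines of an array.

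Of the other members among the brightest 12, TC283647, AW566110, TC298166, TC312532, TC283860, TC309050 and TC290542 also had all 8 samples at 2 mm above all 8 at 1 mm. TC283647 had log2 level differences, 2 mm minus 1 mm, of 1.76 in *Mu killer* and 0.65 in *Mu* active. For the last 5 they lay between 0.93 and 1.30 in *Mu killer* and between 0.98 and 1.25 in *Mu* active. For TC290542 no *Mu* active sample was well above background at 1 mm. Its floored value in that line was 2.38-fold higher at 2 mm (4.72-fold with no offset). TC313472 differed by 1.35 in *Mu killer* and 1.07 in *Mu* active, but its *Mu killer* replicate 1 at 2 mm (51.22 units) was under its *Mu killer* replicate 4 at 1 mm (78.61 units).

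The 3 members detected in no 1 mm sample covered a wide range of signal. AW566110 (A_92_P001556) had 198.1, 145.0, 379.1 and 579.4 units in *Mu killer* at 2 mm and 69.75, 104.9, 513.8 and 409.7 units in *Mu* active, and between 5.023 and 12.16 units in the 8 samples at 1 mm. By floored values it was 2.52-fold higher at 2 mm in *Mu killer* and 2.23-fold higher in *Mu* active (7.61-fold and 6.69-fold with no offset). The stages were fully separated for this probe.

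AI665554 (A_92_P007023) had 256.1, 97.15, 108.2 and 41.68 units in *Mu killer* at 2 mm and 90.26, 97.77, 44.54 and 12.83 units in *Mu* active. TC304095 (A_92_P021529) had 24.05, 13.15, 79.12 and 44.40 units in *Mu killer* at 2 mm and 19.55, 9.935, 67.80 and 21.80 units in *Mu* active. Both had low samples at 2 mm that reached into their 1 mm ranges, which were between 5.378 and 16.35 units for AI665554 and between 4.635 and 12.37 units for TC304095. The floored values were 1.62-fold in *Mu killer* and 1.41-fold in *Mu* active for AI665554, and 1.26-fold and 1.24-fold for TC304095. With no offset they were 3.49-fold and 2.71-fold for AI665554, and 1.93-fold and 1.86-fold for TC304095.

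**Figure D3:**
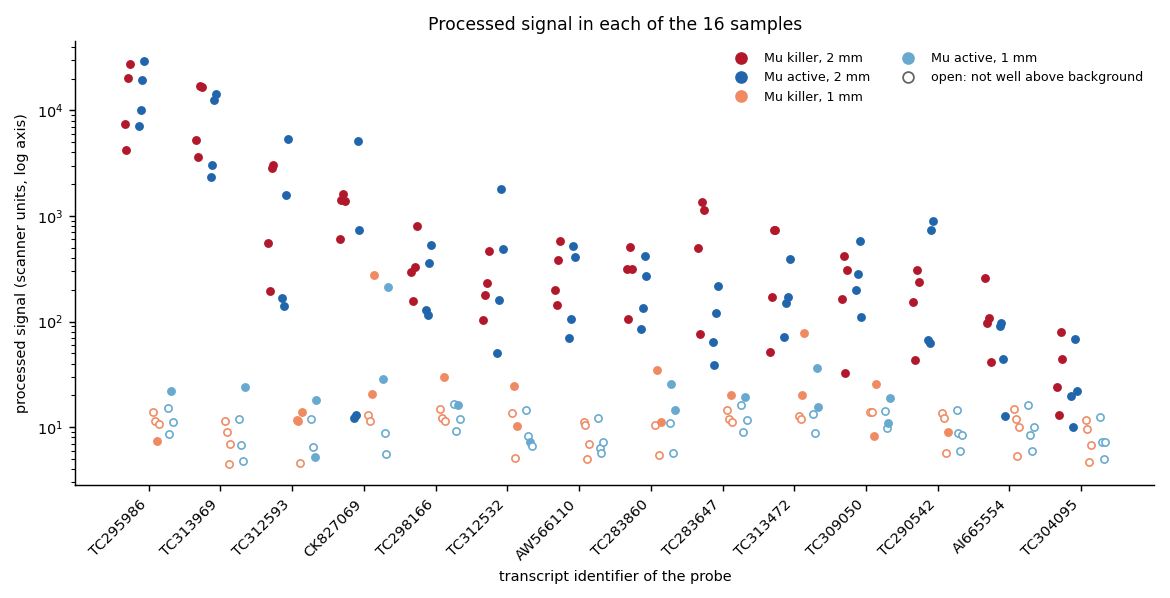
Processed signal (log axis) of the 12 brightest members and of AI665554 and TC304095 in each of the 16 samples, with *Mu killer* in red tones, *Mu* active in blue tones, 2 mm left of 1 mm within an identifier, and open circles for samples not well above background. TC295986 and TC313969 separate the stages most widely, while 2 *Mu* active samples of CK827069 at 2 mm lie among its 1 mm samples.

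A few members varied more between samples than between stages. CK827069 (A_92_P021402) had 608.0, 1414, 1604 and 1380 units in *Mu killer* at 2 mm, but 12.22, 12.98, 5159 and 729.0 units in *Mu* active, besides 275.1 and 210.7 units in replicate 4 of *Mu killer* and *Mu* active at 1 mm. *Mu* active replicates 1 and 2 at 2 mm were thus as low as most 1 mm samples, and the groups overlapped.

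CD996344 (A_92_P027468) had 1186, 1819, 111.4 and 17.47 units in *Mu killer* at 2 mm and 29.45, 74.71, 1245 and 11.56 units in *Mu* active. At 1 mm it had 12.11, 13.99, 1290 and 2103 units in *Mu killer* and 12.78, 10.13, 38.24 and 1092 units in *Mu* active. High and low samples occurred in every group, so this probe met the rule without a separation of the stages. AI973428 (A_92_P025992) was of the same kind, with between 13.73 and 1053 units at 2 mm and between 7.06 and 587.0 units at 1 mm.

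Across the 4 replicates at 2 mm, the highest sample had at least 10 times the signal of the lowest for 10 of the 90 members in *Mu killer* and 9 in *Mu* active. The shares among all 29978 probes were 2.47% in *Mu killer* and 2.95% in *Mu* active. The median SD of log2 processed signal over the 4 replicates for the members was 0.77 in *Mu killer* against 0.80 in *Mu* active, beside 0.50 and 0.53 for all those probes. The members were much dimmer than those probes (medians of 39.1 and 365 units). No probes of like signal were compared, so the wider spread is not read as a trait of the members.

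For 14 of the 90 members the array carried 20 other probes of the same identifier, which had no part in the choice. Of the 20, 13 were well above background in all 8 samples at 2 mm, and 11 were so in all 8 samples at 1 mm. Only 5 were marked in at most 4 of the 8 samples at 1 mm. Over all maize probes, 71.3% were marked in all 8 samples at 2 mm and 72.4% in all 8 samples at 1 mm. At most 4 of the 8 samples at 1 mm were marked for 14.4%. By these shares the pool of 20 was marked no more often than probes in general. MAGI4_412 alone held 7 of the 20, marked in between 0 and 8 samples at each stage, so the pool rests in part on that identifier. At 1 mm the other probes of AI665554, AW216347, AW231306, CD996344, DN228419, TC283860, TC285237, TC287319 and TC303966 were marked in all 8 samples. Those of CK827069, CK347739, TC313969 and AI973428 were marked in 7, 6, 1 and 0 samples. For some identifiers, described next, the other probe was marked at 1 mm where the member probe was not.

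For TC283860, whose member probe (A_92_P040839) had between 84.84 and 508.7 units at 2 mm and between 5.507 and 34.75 units at 1 mm, the other probe (A_92_P038793) also had far more signal at 2 mm. That probe had 50131, 25414, 167240 and 115237 units in *Mu killer* at 2 mm and 20797, 20720, 179025 and 173264 units in *Mu* active. At 1 mm it had between 114.4 and 223.9 units, well above background in all 8 samples. Its log2 level differences, 2 mm minus 1 mm, were 7.18 in *Mu killer* against 6.87 in *Mu* active. The stages did not overlap.

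For AI665554 the other probe (A_92_P038586) had 21262, 11038, 52414 and 46789 units in *Mu killer* at 2 mm and 5976, 8761, 64103 and 108749 units in *Mu* active. At 1 mm it had between 46.99 and 113.9 units and was well above background in all 8 samples. Its log2 level differences, 2 mm minus 1 mm, were 6.51 in *Mu killer* and 6.33 in *Mu* active. An identifier whose member probe had no detection at 1 mm was thus detected in every 1 mm sample by its other probe.

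For some other identifiers the probes differed in direction or detection. TC313969's other probe (A_92_P008462) stayed between 8.161 and 18.83 units at 2 mm and between 5.647 and 20.49 units at 1 mm, well above background in none of the 8 samples at 2 mm. CK827069's other probe (A_92_P012863) had log2 level differences, 2 mm minus 1 mm, of -0.17 in *Mu killer* against -0.49 in *Mu* active. That of DN228419 (A_92_P014250) had -0.09 in *Mu killer* and -0.17 in *Mu* active, where its member probe had 0.22 and 0.31. The other probe of AI973428 (A_92_P014547) was detected in no sample. The other probes of TC287319, TC285237 and CD996344 differed between the stages in the same direction as their member probes. Each of them was, however, well above background in all 8 samples at 1 mm. TC287319's other probe (A_92_P027888) had between 22966 and 64924 units at 1 mm, where its member probe had between 5.189 and 23.1 units. The other probes of TC287319 and TC285237 had differences of 0.82 and 0.81 in *Mu killer* and 0.68 and 0.42 in *Mu* active. That of CD996344 had 0.37 in *Mu killer* and 0.22 in *Mu* active.

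**Figure D4:**
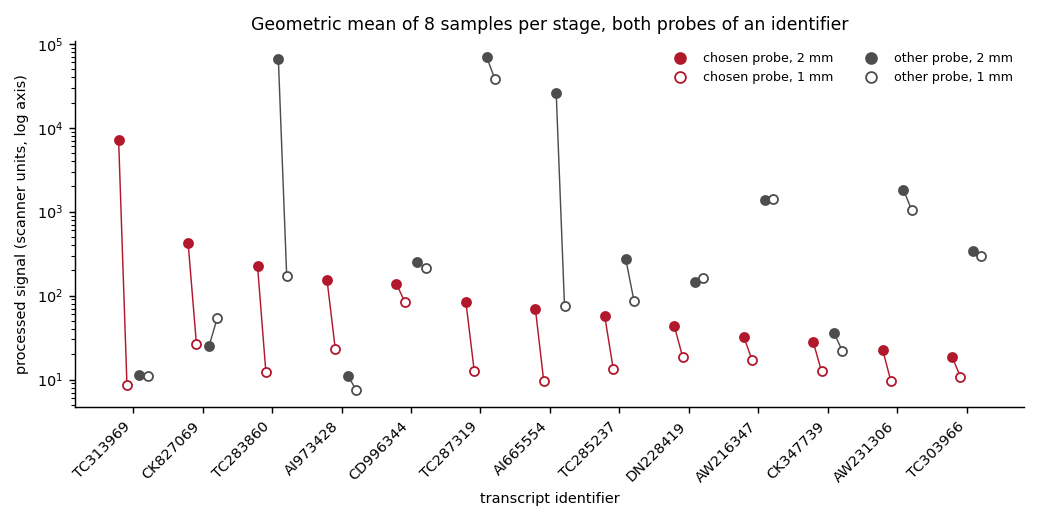
Geometric mean processed signal (log axis) of the 8 samples at 2 mm (filled) and the 8 at 1 mm (open) for the 13 identifiers with 1 other probe, the member probe in red and the other probe in gray. The other probes of TC283860 and AI665554 differ strongly between the stages, while that of TC313969 stays near 11 units at both.

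The comparison of *Mu killer* with *Mu* active within arrays at 2 mm was not used in the choice and was tested with limma over all probes. With a 1.5-fold or greater ratio and p under 0.05 before adjustment, 1 of the 90 members (1.11%) was called, higher in *Mu killer*, beside 4.87% of the 29978 probes (3.28% higher and 1.59% lower). None of the 90 had an adjusted p under 0.05 (Benjamini-Hochberg over 29978 probes, of which 0.01% passed), and the lowest was 0.274. At an unadjusted p under 0.05 alone, 12 members (13.3%) were higher in *Mu killer* and 0 lower, beside 10.0% of the probes higher and 7.07% lower.

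The called member was TC283647 (A_92_P014518). It had 499.3, 76.33, 1342 and 1137 units in *Mu killer* at 2 mm and 63.63, 38.90, 121.5 and 214.9 units in *Mu* active. *Mu killer* was the higher sample on all 4 arrays, although the ranges of the lines overlapped. The fitted log2 ratio, *Mu killer* over *Mu* active, came to 1.05 (SE 0.232, limma adjusted p = 0.274). It ran between 0.76 and 1.29 with each 2 mm array left out in turn, and was 1.55 with no offset and 2.45 in the scanner's log ratio.

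DR804293 (A_92_P016345) was the other member with the largest ratio of one sign on all 4 arrays. It had 239.0, 126.2, 239.0 and 300.5 units in *Mu killer* at 2 mm and 141.3, 23.84, 52.10 and 60.53 units in *Mu* active, so 3 of the 4 *Mu killer* samples were above every *Mu* active sample. The fitted log2 ratio came to 0.51 (SE 0.136, limma adjusted p = 0.282). It ran between 0.31 (without array 4) and 0.68 (without array 3) with each array left out, and was 0.98 with no offset and 1.92 in the scanner's log ratio. In the other direction, DN228419 (A_92_P017384) and CD433766 (A_92_P013075) were lower in *Mu killer* on all 4 arrays by the normalized ratio. Their log2 ratios were -0.10 (adjusted p = 0.34 from limma) and -0.08 (adjusted p = 0.404). In processed signal DN228419 was higher in *Mu killer* on array 2 (18.67 against 16.88 units). CD433766 was so on array 4 (64.18 against 58.73 units). The other probe of DN228419 (A_92_P014250) had a log2 ratio of 0.13. Without array 3 the 2 members had -0.12 and -0.06. The ratio of DN228419 was 0.08 with arrays centered on their median in place of loess and -0.34 with no offset. That of CD433766 was -0.00 with median centering, -0.16 with no offset and -1.06 in the scanner's log ratio.

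The 2 brightest members did not share a direction between the lines. TC295986 had log2 ratios of 0.09, -1.16, -0.04 and -0.10 on arrays 1 to 4, and a fitted value of -0.30 (SE 0.192, adjusted p = 0.406 from limma) that rested on array 2, without which it was -0.00. TC313969 was higher in *Mu killer* on all 4 arrays, with 0.97, 0.32, 0.37 and 0.25 and a fitted value of 0.48 (SE 0.117, adjusted p = 0.278 from limma), or 0.31 without array 1 and 0.17 with median centering. Without array 3 the fitted values were -0.36 for TC295986 and 0.50 for TC313969, and TC295986 had -0.59 with median centering. CD996344, CK827069 and AI973428 had fitted ratios of 1.20, 1.09 and 0.70, each with single arrays of either sign.

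More of the members' fitted ratios were above 0 than below it. The fitted ratio was above 0 for 63 of the 90 and below 0 for 27, beside 49.3% of the 29978 probes above 0. The median log2 ratio was 0.049 (SD between replicates 0.045), beside -0.004. The 90 probes share the same arrays and are not independent. They were also dimmer than the 29978 (medians of 39.1 and 365 units), and no share was taken for equally dim probes. The count is therefore not read as a line difference. On arrays 1 to 4 the numbers above 0 were 63, 62, 40 and 59 of the 90. Beside them, 49%, 50%, 51.8% and 51.9% of the 29978 probes were above 0, so array 3 did not share this direction. For some members the normalized ratio on array 3 was small although the scanner signals differed widely. For DR804293, 239.0 against 52.10 units gave 0.12 on array 3, while 300.5 against 60.53 units gave 1.03 on array 4. For TC283647, 1342 against 121.5 units gave 0.66 on array 3, while 1137 against 214.9 units gave 1.90 on array 4. The cause was not tested. Centering on the median moved the median of all 29978 probes to -0.134, and with it 84 members were above 0 with a median of 0.151, beside 35.7% of those probes.

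Without array 3 at 2 mm, 8 of the 90 members (8.89%) had an adjusted p under 0.05 from limma, all higher in *Mu killer*, beside 17.8% of the 29978 probes (9.58% higher in *Mu killer*). They were CK827069, TC298166, AW566110, TC283647, AW499383, DR804293, AI600666 and AW216347, with log2 ratios between 0.31 and 1.80 on the other 3 arrays. The member share was below the share of all probes in that fit. Array 3 was left out because of these same line ratios, so the adjusted p-values without it are no independent support. On array 3 the ratios were -1.27 for CK827069, -0.05 for TC298166, -0.13 for AW566110 and -0.03 for AW499383. They were 0.66 for TC283647, 0.12 for DR804293, 0.01 for AI600666 and 0.03 for AW216347. With all arrays and no offset, 8 members were called at a 1.5-fold ratio and an unadjusted p under 0.05, beside 11.2% of the probes, with the scanner's log ratio 9 were, beside 14.6%, and in a fit of the 2 mm arrays alone 2 were, beside 3.44%. By the same thresholds with an offset of 50, 4 members (4.44%) were called without array 3, beside 15.3% of the probes. Without array 1 there were 2 (2.22%, beside 3.69%) and without array 4 there were 3 (3.33%, beside 2.74%), so only in the last of these was the member share the higher one.

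**Figure D5:**
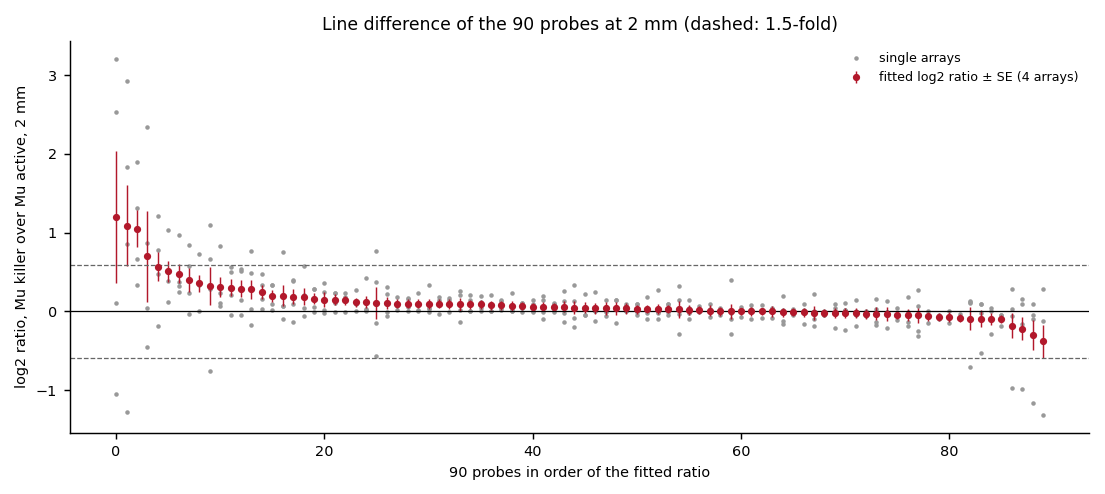
Fitted log2 ratio at 2 mm, *Mu killer* over *Mu* active (red, with SE, 4 arrays) for the 90 probes in order of that ratio, single arrays in gray, and dashed lines at 1.5-fold. Of the 90, 4 are above the upper dashed line and 0 below the lower, and the widest single-array spread is at the left end, in CD996344 and CK827069.

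The change of the line ratio between the stages (2 mm minus 1 mm) was tested in the same fit. None of the 90 members passed an adjusted p under 0.05, and neither did any of the 29978 probes (0.0%). At an unadjusted p under 0.05, 3 members (3.33%) passed, beside 2.62% of the probes. Without array 3 at 2 mm, 0 members and 0.0% of the probes passed an adjusted p, and 12 members (13.3%) had an unadjusted p under 0.05, beside 14.3% of the probes. The 3 members with all arrays were TC313969, TC283647 and DR804293, with changes of 0.52, 1.11 and 0.48 on the log2 scale. At 1 mm the ratios of these 3 were -0.05, -0.06 and 0.03, where 1, 2 and 4 of their 8 samples were well above background.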

How the data were processed

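Array intensity values were deposited by the authors as scanner output, which per the file headers was made with Agilent Feature Extraction 9.5.3.1. The deposited log10 ratios of that software and the authors' table of normalized intensities (log2 taken here) were used as alternatives only. In that table each column followed the mirrored replicate and the other color, so its replicate order is unsettled. Cy3 samples were grouped by their labels, and the 8 Cy5 samples, against theirs, by the study's pairing of the lines on each array. The members and lists were chosen with earlier results of these data known. Mean signals were corrected with limma 3.58.1 in R 4.3.3 (normexp, offset 50, local background medians), normalized by loess within arrays and, for levels, by quantiles between arrays (Aquantile). Control spots had weight 0 and outlier spots were left out. Log2 ratios of *Mu killer* over *Mu* active were fitted with a coefficient per stage and a dye term, with eBayes over 42034 probes and p-values adjusted over the 29978 probes well above background in all 8 samples at 2 mm. The script was tested on simulated data. Both lines share an array, which the ratio takes as a block. Deviations of the samples of an array correlated between 0.144 and 0.531 at 2 mm. Named were the 12 brightest members, those detected in no 1 mm sample, the 2 with the largest ratio in each direction among those of one sign on 4 arrays, up to 8 with another probe, and probes at the threshold. Other names were chosen after their values were seen. Arrays give no counts, and their number, 8, limits the precision. P-values cover the spread between these arrays. Gene names came from a RefSeq table, and sequences were not analyzed here. Alternatives concerned the detection mark, background, normalization, dye term, block and each array.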

Additional observations from a re-analysis of the deposited data

Results flagged for a closer look

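Among 44 groups of 4 samples examined (named members at 2 mm, and detected members at 1 mm), 1 held a sample far from the others, where chance gives about 1 in 20. For CK827069 at 2 mm, *Mu killer* replicate 1 had 608.0 units of processed signal, against 1380, 1414 and 1604 units in the other 3 *Mu killer* samples. Of the array partners, *Mu* active replicates 1 and 2 were both low, at 12.22 and 12.98 units.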

How the results depend on the processing

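The number of probes meeting the rule depended on the detection limit. It was 17 with at most 2 of 8 samples at 1 mm, 3 with 0 of 8, 56 with a limit of 5 SD above background (2 of them among the 90) and 380 by presence in the authors' table, while the positive-and-significant mark and the removal of outlier spots gave 90. Leaving out single arrays gave between 55 (without array 1 at 1 mm) and 239 probes (without array 3 at 1 mm), and between 45 and 90 members shared.

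The median stage difference, 2 mm minus 1 mm, was 0.69 with offset 0, 1.68 with processed signal scaled to the 75th percentile and 0.13 in the authors' table (73 members with values) in *Mu killer*, and 0.61, 1.60 and 0.10 in *Mu* active. Without single arrays it ran between 0.20 and 0.27 in *Mu killer* and between 0.17 and 0.22 in *Mu* active. Replicate numbers did not pair the stages (correlations between -0.295 and 0.314), and pairing them as a block gave 0.25 in *Mu killer* and 0.21 in *Mu* active.

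Between the lines at 2 mm, members called at 1.5-fold were 8 with offset 0 (8.89%, beside 11.2% of the probes), 9 with the scanner's log ratio (8 higher and 1 lower, beside 14.6%) and 2 with the 2 mm arrays alone (2.22%, beside 3.44%). Without single arrays they were between 1 and 4, and those passing an adjusted p between 0 and 8, the last without array 3. The median log2 ratio was 0.151 with median centering, 0.167 with offset 0 and 0.236 with the scanner's ratio, and between 0.035 and 0.068 without single arrays. Without the array as a block (no replicate block, separate channels) 1 member was called, 0 passed an adjusted p and the median stayed 0.049. The ratio of DN228419 was 0.08 with median centering. All probes called at 1.5-fold were 983 higher and 478 lower, but 262 higher and 1880 lower with median centering and 1862 higher and 1509 lower with offset 0. The cause of these shifts was not tested. Signals near background limit the 57 members under 50 units most.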
